A study of Homo sapiens with 15 samples.

Results

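Non-additive effects of losing both SWI/SNF ATPases were measured gene by gene in HepG2 cells, as the deviation of a double knockdown from the sum of the single knockdowns. On the log2 scale, the deviation is the mean of the double knockdown minus that of BRG1 knockdown minus that of BRM knockdown plus that of the non-silencing control (NS), so that a value of 0 means that the single fold changes multiply. A positive deviation puts a gene above the sum and a negative one below it, whichever way the gene itself moved. All genes were members: of 35012 gene symbols, 14621 had enough counts to be tested, and edgeR's quasi-likelihood test called 73 of them at a Benjamini-Hochberg adjusted p under 0.05 (0.499% of the genes tested). Of these, 15 lay above the sum (0.103%) and 58 below it (0.397%). The median deviation of all genes tested was -0.05.

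HepG2 is an established human liver cancer cell line that still makes many hepatocyte proteins. Cells were infected with lentivirus encoding a short hairpin RNA, a small RNA that silences its matching messenger RNA, then kept under puromycin and collected on day 5 after infection. The 15 libraries of messenger RNA came from cells given shNS (4 libraries), shBrg1 (4), shBrm (3) or shBRG1 together with shBRM (4). All groups therefore carried a virus and were exposed to the same drug. The labels do not say whether the libraries of a group came from separate cultures, so p-values measure the spread between these libraries, which may be technical.

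BRG1 and BRM, encoded by SMARCA4 and SMARCA2, are the alternative motors of the SWI/SNF (BAF) complexes, which use ATP to slide or evict nucleosomes at promoters and enhancers. A given complex holds one of them, and the ATPases are close paralogs, so the loss of one can leave complexes built on the other. The design asks where the effect of removing both differs from what the single removals add up to.

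Total counts per library ranged from 11500149 to 27187991. SMARCA4 read 311, 297, 310 and 310 CPM (counts scaled to a common library size) in NS libraries 1 to 4, 29.3, 28.99, 28.6 and 24.4 after BRG1 knockdown, 281, 312 and 444 after BRM knockdown, and 43.3, 52.0, 39.0 and 50.4 in the double knockdown. SMARCA2 read 41.2, 33.1, 41.1 and 41.4 CPM in NS, 28.1, 29.5, 21.6 and 23.9 after BRG1 knockdown, 6.85, 2.55 and 3.73 after BRM knockdown, and 2.79, 2.22, 2.84 and 2.40 in the double knockdown. Every library matched its label, and SMARCA4 stayed higher in each double library than in each BRG1 library. That difference was 0.73 ± 0.16 on the log2 scale (standard error (SE), adjusted p = 0.00858, edgeR), so the double knockdown left more SMARCA4 RNA than the single one, and the part of this residue in the deviations was not tested. The deviations of the targets were 0.56 ± 0.23 for SMARCA4 (adjusted p = 0.339) and -0.14 ± 0.35 for SMARCA2 (adjusted p = 0.956). Genes that differed from NS numbered 3284 after BRG1 knockdown (22.5% of those tested), 2035 after BRM knockdown (13.9%) and 3165 in the double knockdown (21.6%). The double knockdown differed from BRG1 knockdown at 1582 genes (10.8%) and from BRM knockdown at 2787 (19.1%). Mitochondrially encoded RNA took 4.97 to 8.33% of the counts in libraries numbered 1 and 2 and 1.33 to 3.55% in those numbered 3 and 4, whatever the group. The numbers are therefore treated as 2 sets of libraries, and deviations are also given within each set, where the set numbered 3 and 4 holds 1 BRM library. The BRM mean over all libraries thus draws more on libraries 1 and 2 than the other means do. The part of this imbalance in the deviations was not tested. With a term for the set in the fit, edgeR called 1061 genes, all 73 among them. Summed hepatocyte identity markers (10 genes, all detected, among them ALB, APOA1, HNF4A and TTR) lay at 25930 to 35640 CPM in NS, 6244 to 18020 after BRG1 knockdown, 41480 to 48330 after BRM knockdown and 11610 to 24520 in the double knockdown. These sums, and the values of the other marker lists below, use library totals without further scaling, unlike the CPM of single genes above. In bulk RNA, a lower level in every cell and fewer cells with the RNA cannot be told apart.

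Above the sum, BRM knockdown gave the lowest group mean for 11 of the 15 and BRG1 knockdown for 4, and the double knockdown gave the highest mean for 8. Both single knockdowns had means below NS for 8 genes, and BRG1 knockdown above with BRM knockdown below for 6. The double knockdown came back to within 1.5-fold of NS for 7 of the 15. The genes below the sum had the opposite layout. BRM knockdown gave the highest mean for 37 of the 58 and BRG1 knockdown for 21, and the double knockdown never gave the highest. Both single knockdowns had means above NS for 39 genes, and BRM knockdown above with BRG1 knockdown below for 18. The double knockdown gave the lowest of the 4 means for 31 genes, and for 27 its mean was within 1.5-fold of NS. The calls were made from the same 4 means, so these layouts describe the calls and are no separate evidence. Deviations were 1.002 to 3.75 above the sum and -5.41 to -1.001 below it, and each of the 73 had the same sign when the 4 group means were combined on the linear CPM scale.

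**Figure D1:**
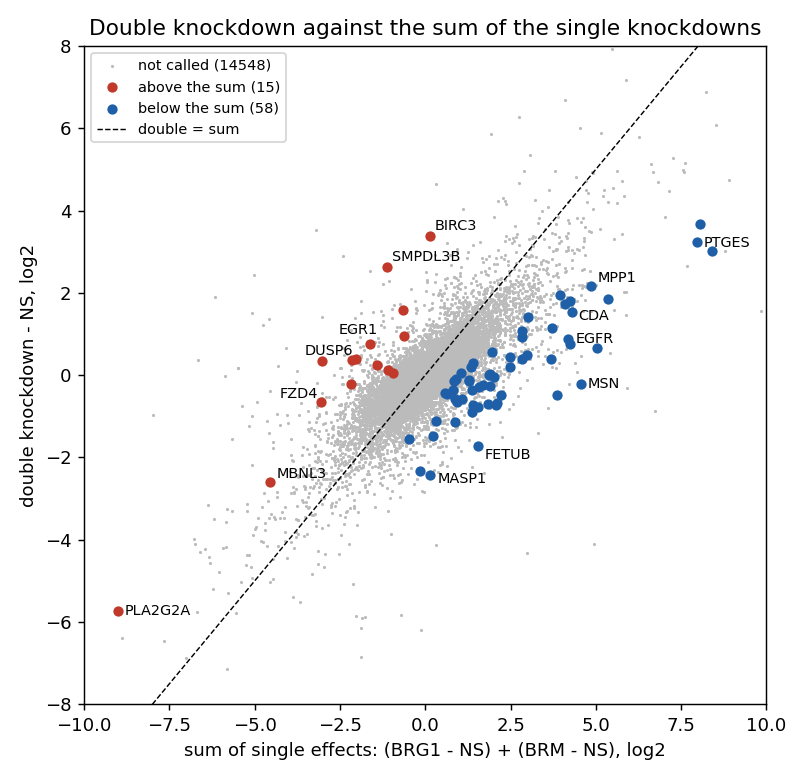
Each point is a gene tested, with the sum of its single effects (BRG1 minus NS plus BRM minus NS, log2) on the horizontal axis and the double knockdown minus NS (log2) on the vertical axis, and the dashed line marks equality. Red points are the 15 genes called above the sum and blue points the 58 called below it, and 12 genes lie outside the axes. The called genes sit off the line to both sides, with more blue than red.

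BIRC3 and TNFAIP3, from the list of NF-kB and chemokine genes, lay above the sum. NF-kB is a family of transcription factors activated by inflammatory signals, and its targets include its own inhibitors. BIRC3, a ubiquitin ligase that blocks cell death and is itself an NF-kB target, read 1.75, 2.24, 1.75 and 1.16 CPM in NS, 4.81, 5.99, 3.13 and 2.75 after BRG1 knockdown, 1.29, 0.450 and 0.645 after BRM knockdown and 18.0, 18.8, 22.8 and 11.3 in the double knockdown. All double libraries lay above every other library, and all BRG1 libraries above every NS library. BIRC3 rose by 1.28 ± 0.35 (log2, adjusted p = 0.0154) with BRG1 lost and by 3.37 ± 0.36 with both lost (adjusted p = 2.38e-05). With BRM lost it was -1.15 ± 0.42 (adjusted p = 0.0806). The deviation from the sum was 3.24 ± 0.54 (adjusted p = 0.0124), with 3.05 in libraries 1 and 2 and 3.65 in libraries 3 and 4.

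TNFAIP3, which encodes A20, a ubiquitin-editing inhibitor of NF-kB, followed another course. It read 21.6, 20.2, 34.7 and 43.4 CPM in NS, 13.4, 19.2, 17.6 and 17.9 after BRG1 knockdown, 12, 11.1 and 12.2 after BRM knockdown and 27.0, 24.6, 25.1 and 26.9 in the double knockdown. Both single knockdowns lay below every NS library, the double knockdown lay above every single-knockdown library, and double and NS libraries overlapped. In libraries 1 and 2 the double libraries lay above those of NS, and in libraries 3 and 4 below them. TNFAIP3 fell by 0.82 after BRG1 knockdown (SE 0.22, adjusted p = 0.0135) and by 1.35 after BRM knockdown (SE 0.24, adjusted p = 0.00213), and the double knockdown was -0.21 ± 0.22 from NS (adjusted p = 0.547). Its deviation was 1.96 ± 0.32 (adjusted p = 0.0124), 1.53 in libraries 1 and 2 and 2.23 in libraries 3 and 4. Without BRM library 2 the adjusted p of TNFAIP3 was 0.0537.

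EGR1 and DUSP6, which respond to growth factor signalling through ERK, fell with the loss of BRM alone and not with the loss of both. EGR1, a zinc finger transcription factor switched on within minutes of growth factor signals, read 27.1, 32.8, 19.8 and 41.9 CPM in NS, 103, 89.1, 52.9 and 48.8 after BRG1 knockdown, 3.70, 3.60 and 4.88 after BRM knockdown and 55.5, 58.2, 38.6 and 53.3 in the double knockdown. Libraries of BRM knockdown stood below all others, and the double libraries overlapped those of BRG1 knockdown and NS. Within libraries 1 and 2 the double libraries lay between those of NS and BRG1 knockdown, and within libraries 3 and 4 they overlapped both. With BRM lost, EGR1 fell by 2.90 (log2, SE 0.33, adjusted p = 0.000105), rose by 1.27 ± 0.27 after BRG1 knockdown (adjusted p = 0.0036) and was 0.76 ± 0.27 above NS in the double knockdown (adjusted p = 0.0575). The deviation was 2.39 ± 0.41 (adjusted p = 0.0158), 2.28 and 2.53 in the 2 sets, and without BRM library 2 the adjusted p was 0.0612.

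DUSP6, the phosphatase that switches off ERK in the cytoplasm, read 42.0, 41.8, 69.8 and 105 CPM in NS, 122, 107, 78.05 and 80.2 after BRG1 knockdown, 10.2, 10.5 and 10.6 after BRM knockdown and 102, 104, 79.7 and 53.8 in the double knockdown. Again the BRM libraries were lowest, here with almost no spread, while the other groups overlapped. Within libraries 1 and 2 the double libraries of DUSP6 lay above those of NS, and within libraries 3 and 4 they overlapped. DUSP6 fell by 2.63 after BRM knockdown (SE 0.34, adjusted p = 0.000289). In the double knockdown it was 0.40 ± 0.29 from NS (adjusted p = 0.37), and double minus BRM was 3.02 ± 0.35 (adjusted p = 5.14e-05). Its deviation of 2.44 ± 0.44 (adjusted p = 0.0225; 1.86 and 2.80 in the sets) lost its call without BRM library 2, NS library 3 or BRG1 library 3, with adjusted p from 0.0511 to 0.0773. LPAR6, a receptor for lysophosphatidic acid, had the same layout with means of 15.4 ± 2.22 (standard deviation (SD), n = 4) in NS, 20.5 ± 5.27 (n = 4) after BRG1 knockdown, 2.67 ± 1.02 (n = 3) after BRM knockdown and 20.01 ± 7.25 (n = 4) CPM in the double knockdown. Its deviation was 2.51 ± 0.46 (adjusted p = 0.0237), and the adjusted p was 0.0558 to 0.0623 without BRM library 2, BRG1 library 3 or NS library 4.

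SMPDL3B, MPZL2 and SIRPA, all proteins of the cell surface, rose in the double knockdown. SMPDL3B, a lipid-anchored phosphodiesterase of the cell surface, had the largest deviation above the sum, 3.75 ± 0.53 (adjusted p = 0.00445; 4.62 and 2.90 in the sets). It read 3.25, 3.36, 1.84 and 1.63 CPM in NS, 3.15, 2.17, 4.87 and 5.50 after BRG1 knockdown, 0.725, 0.7996 and 0.691 after BRM knockdown and 16.0, 14.8, 9.86 and 21.6 in the double knockdown. The double libraries stood above all others and the BRM libraries below all others. SMPDL3B fell by 1.76 after BRM knockdown (SE 0.41, adjusted p = 0.0107) and rose by 2.62 ± 0.35 in the double knockdown (adjusted p = 0.000123). MPZL2, an adhesion protein of epithelia, also fell after BRM knockdown, by 1.38 (SE 0.29, adjusted p = 0.00595), and rose in the double knockdown, by 1.59 ± 0.26 (adjusted p = 0.00058), with a deviation of 2.24 ± 0.38 (adjusted p = 0.016). SIRPA, the receptor for the "do not eat me" signal CD47, had means of 39.2, 32.7 and 30.4 CPM in NS, BRG1 and BRM knockdown and 75.5 in the double knockdown, where it rose by 0.94 ± 0.22 (adjusted p = 0.00674). Neither single knockdown of SIRPA passed the test, and its deviation was 1.57 ± 0.33 (adjusted p = 0.0498). The call of SIRPA remained in 4 of the 15 fits that leave out 1 library, those without NS library 2, BRM library 3 or double library 1 or 2, with an adjusted p of 0.0564 to 0.173 in the rest.

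FZD4, a receptor for Wnt ligands and norrin, fell in each single knockdown and was higher than in either when both ATPases were lost. It read 301, 281, 142 and 142 CPM in NS, 69.9, 73.7, 77.7 and 82.3 after BRG1 knockdown, 81.7, 75.0 and 65.2 after BRM knockdown and 167, 159, 99.2 and 124 in the double knockdown. Every double library lay above every single-knockdown library. Double libraries overlapped those of NS over all libraries, but within libraries 1 and 2 and within libraries 3 and 4 they lay below NS. FZD4 fell by 1.51 and 1.55 after BRG1 and BRM knockdown (SE 0.25 and 0.28, adjusted p = 0.000768 and 0.00229). In the double knockdown it was -0.66 ± 0.25 from NS (adjusted p = 0.075), and it exceeded BRG1 knockdown by 0.85 ± 0.25 (adjusted p = 0.0417) and BRM knockdown by 0.89 ± 0.28 (adjusted p = 0.0347). The deviation was 2.40 ± 0.38 (adjusted p = 0.00846), with 3.08 in libraries 1 and 2 and 1.60 in libraries 3 and 4.

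MBNL3, an RNA-binding regulator of splicing, and PLA2G2A, a secreted phospholipase, stayed low in the double knockdown and were above the sum all the same, since the single effects added up to a lower level. MBNL3 read 476, 450, 402 and 484 CPM in NS, 46.7, 54.3, 51.7 and 59.7 after BRG1 knockdown, 235, 116 and 143 after BRM knockdown and 82.9, 79.2, 64.5 and 73.0 in the double knockdown. Each double library lay above every BRG1 library and below every BRM library. MBNL3 fell by 3.09, 1.46 and 2.60 in the BRG1, BRM and double knockdown (SE 0.21, 0.22 and 0.20), and its deviation was 1.96 ± 0.29 (adjusted p = 0.00518; 2.08 and 1.93 in the sets). PLA2G2A had means of 29.6 ± 14.7 CPM (SD, n = 4) in NS, 3.56 ± 0.764 (n = 4) after BRG1 knockdown, 0.460 ± 0.121 (n = 3) after BRM knockdown and 0.538 ± 0.225 (n = 4) in the double knockdown. The BRM and double libraries overlapped, and double minus BRM was 0.22 ± 0.48 (adjusted p = 0.806). They held 26 and 45 counts in all, so the size of the deviation rests on few counts, unlike that of MBNL3. The deviation of PLA2G2A, 3.28 ± 0.60 (adjusted p = 0.0242), lost its call with limma voom (adjusted p = 0.148) and, in edgeR, without BRG1 library 1 or 2, BRM library 2 or 3 or double library 3 or 4 (adjusted p from 0.0506 to 0.0659).

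CRABP2, a carrier of retinoic acid, and SNX10, an endosomal sorting nexin, lost their calls in most of the fits that leave out 1 library. CRABP2 had means of 3.93 ± 0.618, 1.17 ± 0.199, 1.60 ± 0.699 and 4.94 ± 3.26 CPM in NS, BRG1, BRM and double knockdown (SD, n = 4, 4, 3 and 4), with double libraries spread from 1.37 to 9.09. Its deviation of 3.36 ± 0.67 (adjusted p = 0.0413) remained called in 1 of the 15 fits that leave out 1 library, the fit without double library 4, and had an adjusted p of 0.0541 to 0.0919 in the other 14. SNX10 fell by 1.18 after BRM knockdown (SE 0.24, adjusted p = 0.00498), and its deviation of 1.66 ± 0.32 (adjusted p = 0.0339) remained called in 5 of 15 such fits, those without a BRM library or double library 3 or 4, and had an adjusted p of 0.0536 to 0.0778 in the rest. The remaining calls above the sum were TMEM135 (1.23 ± 0.24, adjusted p = 0.0355) and JADE1, a scaffold of a histone acetyltransferase complex (1.002 ± 0.20, adjusted p = 0.0413). JADE1 fell by 0.97 after BRG1 knockdown alone (SE 0.14, adjusted p = 0.00019) and exceeded that level by 1.03 ± 0.14 in the double knockdown (adjusted p = 0.000352). The deviation of TMEM135 remained called without BRM library 1, BRG1 library 4 or double library 3 or 4, and that of JADE1 without BRM library 1, BRG1 library 4 or double library 3. In the other 11 and 12 of 15 fits the adjusted p was 0.0548 to 0.124 and 0.0678 to 0.124. Within libraries 3 and 4 neither passed the test (adjusted p = 0.0654 and 0.0817).

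**Figure D2:**
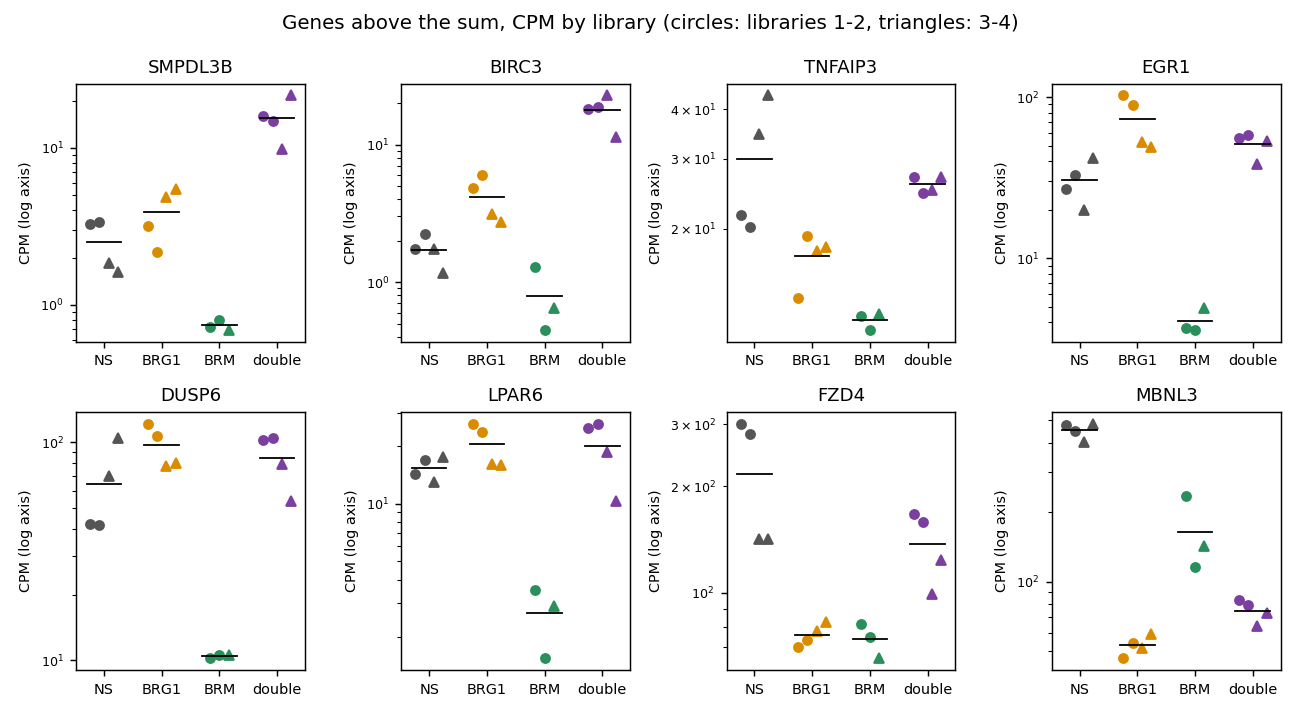
CPM on a logarithmic axis in each library for 8 genes above the sum, by group, where circles are libraries 1 and 2, triangles are libraries 3 and 4 and the line is the group mean. The BRM mean is lowest for SMPDL3B, BIRC3, TNFAIP3, EGR1, DUSP6 and LPAR6, while for MBNL3 the BRG1 libraries are lowest and for FZD4 both single knockdowns are low.

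Start-proximal sequence was searched for the genes with a RefSeq promoter window, here the 250 bases before the gene start (GRCh38.p14): 13 of the 15 genes above the sum, 47 of the 58 below it and 10517 of all genes tested. The NF-kB pattern (GGG, any 2 bases, then TTTCC, on either strand, as for all patterns) was in 3 of the 13 windows above the sum (23.1%), in 0 of the 47 below it and in 1.92% of all windows. The 3 genes were TNFAIP3, with 2 matches starting 67 and 55 bases before the gene start, BIRC3 at 199 and SNX10 at 95. The AP-1 pattern TGANTCA was in 2 of 13, 1 of 47 and 3.97%. The serum response element known as the CArG box was in 1 of 13, 0 of 47 and 0.96%, the 1 gene being EGR1 with matches starting 105 and 83 bases before its start. The HNF4A pattern CAAAGTCCA, the HNF1 pattern (GTTAAT, any base, then ATT) and the CRE pattern TGACGTCA were in no window of a called gene, against 0.276%, 0.209% and 2.8% of all windows. Median GC content was 58.8% above the sum, 66.8% below it and 64.8% in all windows. A match is a description of letters, not of a bound site. Among 31 windows of genes called above the sum in both sets of libraries, the NF-kB pattern was in 4 (12.9%) and the AP-1 pattern in 0. Windows are shown 5′ to 3′ along the gene's strand for the NF-kB matches among genes above the sum and for EGR1. CCL20 was added as a gene called in both sets that has the NF-kB pattern. ICAM1 and FOS, also called in both sets, had no NF-kB or AP-1 match and are not shown. Capitals mark the NF-kB pattern in TNFAIP3, BIRC3 and CCL20, the AP-1 and then the NF-kB pattern in SNX10, and the CArG boxes in EGR1. The windows lie on the plus strand at chr6:137867009-137867258 (TNFAIP3), chr11:102317234-102317483 (BIRC3), chr7:26291612-26291861 (SNX10), chr2:227813592-227813841 (CCL20) and chr5:138465229-138465478 (EGR1).
TNFAIP3: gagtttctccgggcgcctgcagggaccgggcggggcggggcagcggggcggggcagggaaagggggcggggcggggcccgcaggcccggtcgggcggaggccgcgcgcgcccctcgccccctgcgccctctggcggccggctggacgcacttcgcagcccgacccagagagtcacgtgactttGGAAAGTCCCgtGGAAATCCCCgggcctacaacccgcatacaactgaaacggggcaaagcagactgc
BIRC3: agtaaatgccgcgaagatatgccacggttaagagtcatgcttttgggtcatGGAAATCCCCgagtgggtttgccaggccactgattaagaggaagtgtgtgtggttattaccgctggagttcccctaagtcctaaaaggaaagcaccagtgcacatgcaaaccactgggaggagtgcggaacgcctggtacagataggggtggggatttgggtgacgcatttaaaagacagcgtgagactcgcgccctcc
SNX10: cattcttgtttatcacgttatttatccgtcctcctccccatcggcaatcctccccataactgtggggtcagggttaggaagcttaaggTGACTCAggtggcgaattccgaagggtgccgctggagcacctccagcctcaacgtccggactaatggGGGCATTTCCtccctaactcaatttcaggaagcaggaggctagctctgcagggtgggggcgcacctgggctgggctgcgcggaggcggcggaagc
CCL20: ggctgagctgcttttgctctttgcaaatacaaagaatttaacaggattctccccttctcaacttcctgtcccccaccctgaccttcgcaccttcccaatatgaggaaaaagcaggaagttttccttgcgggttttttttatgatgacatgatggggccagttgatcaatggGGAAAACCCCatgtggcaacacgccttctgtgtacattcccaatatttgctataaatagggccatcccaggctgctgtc
EGR1: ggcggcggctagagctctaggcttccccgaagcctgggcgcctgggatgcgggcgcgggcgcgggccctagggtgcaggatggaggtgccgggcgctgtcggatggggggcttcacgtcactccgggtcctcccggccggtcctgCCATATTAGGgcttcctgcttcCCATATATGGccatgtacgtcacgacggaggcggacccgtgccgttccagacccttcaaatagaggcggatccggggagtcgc

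Below the sum, the cytoskeletal linker moesin and the growth factor receptor EGFR rose with the loss of one ATPase and not, or less, with the loss of both. MSN encodes moesin, which ties actin filaments to the plasma membrane. It read 0.970, 0.880, 0.553 and 0.232 CPM in NS, 11.7, 12.04, 6.91 and 7.51 after BRG1 knockdown, 0.805, 1.65 and 0.737 after BRM knockdown and 0.437, 0.405, 0.842 and 0.515 in the double knockdown. The BRG1 libraries stood far above all others, and NS, BRM and double libraries overlapped. MSN rose by 3.85 ± 0.44 after BRG1 knockdown (adjusted p = 4.06e-05), and double minus BRG1 was -4.07 ± 0.44 (adjusted p = 0.000121). Its deviation was -4.78 ± 0.63 (adjusted p = 0.00229; -5.24 and -4.41 in the sets).

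EGFR, the epidermal growth factor receptor, read 51.4, 45.6, 32.5 and 30.2 CPM in NS, 228, 333, 152 and 158 after BRG1 knockdown, 108, 178 and 117 after BRM knockdown and 68.2, 60.0, 90.8 and 72.6 in the double knockdown. Every double library lay above every NS library and below every single-knockdown library. EGFR rose by 2.45 ± 0.28 after BRG1 knockdown (adjusted p = 4.22e-05), by 1.75 ± 0.29 after BRM knockdown (adjusted p = 0.00129) and by 0.87 ± 0.27 with both lost (adjusted p = 0.0329). The deviation was -3.33 ± 0.40 (adjusted p = 0.00175; -3.69 and -2.82 in the sets).

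MPP1, a membrane-associated scaffold protein, had the smallest adjusted p of all genes tested. It read 11.1, 10.96, 10.6 and 8.41 CPM in NS, 89.5, 74.6, 83.5 and 76.1 after BRG1 knockdown, 34.6, 39.3 and 38.4 after BRM knockdown and 49.1, 44.2, 47.3 and 42.8 in the double knockdown. The 4 groups did not overlap, and the double knockdown lay between the single ones. MPP1 rose by 2.98 ± 0.14, 1.87 ± 0.14 and 2.16 ± 0.13 in the BRG1, BRM and double knockdown, and its deviation was -2.69 ± 0.19 (adjusted p = 7.55e-06; -2.56 and -2.85 in the sets). CDA, the cytidine deaminase of pyrimidine salvage, read 7.67, 8.48, 3.50 and 3.76 CPM in NS, 38.1, 34.4, 40 and 34.7 after BRG1 knockdown, 14.98, 19.8 and 20 after BRM knockdown and 13.2, 17.8, 14.5 and 22.2 in the double knockdown. Double and BRM libraries of CDA overlapped, above NS and below BRG1 knockdown. Its deviation was -2.76 ± 0.39 (adjusted p = 0.00445; -2.34 and -3.48 in the sets).

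PTGES, the enzyme that makes prostaglandin E2, was nearly silent in NS, at 0.340, 0.320, 0.277 and 0.0464 CPM (15 counts in all). It rose by 4.28 ± 0.55, 3.68 ± 0.56 and 3.22 ± 0.54 in the BRG1, BRM and double knockdown (adjusted p = 9.43e-05, 0.00081 and 0.000745), to means of 4.70, 3.09 and 2.25 CPM. Every knockdown library lay above every NS library, and the 3 knockdowns overlapped. The deviation of PTGES, -4.73 ± 0.72 (adjusted p = 0.00647), rests on those few NS counts. SLC45A3, a solute carrier of the cell membrane, likewise rose in all 3 arms, by 1.28 ± 0.16, 2.42 ± 0.17 and 1.15 ± 0.16, with a deviation of -2.55 ± 0.23 (adjusted p = 9.53e-05). Its double libraries (11.5 to 15.6 CPM) overlapped the BRG1 libraries (14.3 to 15.2 CPM) and lay below every BRM library (27.6 to 37.7 CPM).

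FETUB, CYP19A1, MAOB, MASP1 and SLC51A rose after BRM knockdown, and in the double knockdown each had a mean below NS. FETUB, the plasma protease inhibitor fetuin-B, read 1.89, 2.64, 1.20 and 2.18 CPM in NS, 0.591, 0.568, 0.783 and 1.08 after BRG1 knockdown, 11.5, 20.2 and 14.01 after BRM knockdown and 0.492, 0.674, 0.386 and 0.858 in the double knockdown. Libraries of BRM knockdown stood above all others, and double and BRG1 libraries overlapped below NS. FETUB rose by 2.94 ± 0.34 after BRM knockdown (adjusted p = 0.000111) and fell by 1.39 and 1.73 in the BRG1 and double knockdown (SE 0.33 and 0.34, adjusted p = 0.00753 and 0.00226). The deviation was -3.28 ± 0.49 (adjusted p = 0.00536; -2.84 and -3.64 in the sets).

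CYP19A1, the aromatase that makes estrogens from androgens, read 9.07, 5.84, 5.99 and 5.02 CPM in NS, 4.34, 4.03, 4 and 3.63 after BRG1 knockdown, 32.1, 62.4 and 38.3 after BRM knockdown and 6.06, 3.10, 2.95 and 3.60 in the double knockdown. Libraries of BRM knockdown stood above all others, and double libraries overlapped those of BRG1 knockdown and NS. CYP19A1 rose by 2.77 ± 0.29 after BRM knockdown (adjusted p = 6.35e-05), and neither of the other knockdowns passed the test. The double knockdown matched BRG1 knockdown to within -0.03 ± 0.27 (adjusted p = 0.978), and the deviation was -2.80 ± 0.40 (adjusted p = 0.00453; -2.51 and -3.04 in the sets). MAOB, a mitochondrial enzyme that degrades amines, read 49.8, 45.3, 49.6 and 37.0 CPM in NS, 43.6, 40.6, 52.3 and 53.5 after BRG1 knockdown, 117, 170 and 181 after BRM knockdown and 22.8, 23.2, 31.4 and 33.2 in the double knockdown. All double libraries of MAOB lay below every library of the other groups. MAOB rose by 1.78 ± 0.20 after BRM knockdown (adjusted p = 8.82e-05) and fell by 0.71 in the double knockdown (SE 0.18, adjusted p = 0.0118), while BRG1 knockdown alone gave 0.06 ± 0.18 (adjusted p = 0.854). Its deviation was -2.56 ± 0.27 (adjusted p = 0.000589; -2.46 and -2.78 in the sets).

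MASP1, a protease that starts the lectin pathway of complement, read 5.68, 5.28, 10.7 and 12.96 CPM in NS, 2.96, 3.93, 3.13 and 5.50 after BRG1 knockdown, 13.2, 25.7 and 25.3 after BRM knockdown and 1.20, 1.21, 1.61 and 2.40 in the double knockdown. The double libraries were the lowest of all. MASP1 fell by 1.16 and 2.42 in the BRG1 and double knockdown (SE 0.35 and 0.37, adjusted p = 0.0265 and 0.000346) and rose by 1.31 ± 0.36 after BRM knockdown (adjusted p = 0.0274). Its deviation of -2.57 ± 0.51 (adjusted p = 0.0413) remained called only without BRM library 1, NS library 4 or double library 4. In the other 12 of 15 such fits the adjusted p was 0.0615 to 0.183, and with limma voom it was 0.0554. SLC51A, a subunit of the bile acid exporter of the basolateral membrane, had means of 2.92 ± 1.24, 2.85 ± 0.896, 14.1 ± 1.87 and 2.09 ± 0.251 CPM in NS, BRG1, BRM and double knockdown (SD, n = 4, 4, 3 and 4). SLC51A rose by 2.27 ± 0.32 after BRM knockdown alone (adjusted p = 0.000494), and its deviation was -2.72 ± 0.44 (adjusted p = 0.0116). Over the same groups the summed hepatocyte markers moved the same way as FETUB and MASP1, up after BRM knockdown and down in the BRG1 and double knockdown. The sum does not describe each marker. After BRM knockdown the median effect of the 10 markers was 0.74, but TTR among them had -1.55 ± 0.22 (adjusted p = 0.000534, edgeR). The part of these markers in these results was not tested.

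The metabolic enzymes ACSL1, ACSS1 and AOX1 had their highest mean after BRM knockdown and a mean in the double knockdown below that of BRG1 knockdown. ACSL1, which activates long-chain fatty acids, had means of 54.2, 91.7, 119 and 45.2 CPM in NS, BRG1, BRM and double knockdown and a deviation of -2.16 ± 0.24 (adjusted p = 0.000729). ACSS1, a mitochondrial acetyl-CoA synthetase, had means of 120, 49.3, 346 and 43.4 CPM and a deviation of -1.71 ± 0.26 (adjusted p = 0.00569). AOX1, an aldehyde oxidase of drug metabolism, had means of 36.8, 61.9, 155 and 48.0 CPM and a deviation of -2.44 ± 0.31 (adjusted p = 0.00186). ACSL1 and ACSS1 had their lowest mean in the double knockdown, and AOX1 in NS. SLC25A20, the carnitine carrier of mitochondria, was below the sum although it rose by 1.07 ± 0.25 with both ATPases lost (adjusted p = 0.00695). With BRM alone lost it rose by 2.90 ± 0.27 (adjusted p = 4.22e-05), and its deviation was -1.76 ± 0.36 (adjusted p = 0.0485). That call remained in 3 of the 15 fits that leave out 1 library, those without NS library 1 or BRM library 1 or 3, with an adjusted p of 0.0703 to 0.178 in the other 12. LPIN1, a phosphatidate phosphatase of triglyceride synthesis, rose by 1.28 ± 0.19 after BRM knockdown alone (adjusted p = 0.000559). Its deviation of -1.43 ± 0.26 (adjusted p = 0.0225) had an adjusted p of 0.0577 when only library totals were used for scaling, and 0.0508 to 0.0721 without NS library 2, BRG1 library 2 or 3, BRM library 3 or double library 2. ACSL1, ACSS1, AOX1 and SLC25A20 were picked for description after their values were seen.

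Genes that rose mainly after BRG1 knockdown included NAGS, CNN1 and NT5E. When BRM was also lost, NAGS and CNN1 lost part of that rise, and NT5E had a mean below that of NS. NAGS makes the cofactor that switches on the urea cycle, and it rose by 3.21 ± 0.34 after BRG1 knockdown (adjusted p = 2.22e-05) and by 1.80 ± 0.32 with both lost (adjusted p = 0.0012), from 3.51 ± 0.831 to 32.4 ± 8.41 and 12.2 ± 4.71 CPM (SD, n = 4 each). CNN1, calponin of smooth muscle, rose by 3.06 ± 0.35 and 1.74 ± 0.34 in the same arms (adjusted p = 3.68e-05 and 0.00195). NT5E, the surface enzyme CD73 that makes adenosine, rose by 1.22 ± 0.23 after BRG1 knockdown (adjusted p = 0.00139) and was -0.36 ± 0.22 from NS in the double knockdown (adjusted p = 0.288). Their deviations were -2.44 ± 0.46 (NAGS, adjusted p = 0.0308), -2.37 ± 0.48 (CNN1, adjusted p = 0.042) and -1.73 ± 0.33 (NT5E, adjusted p = 0.0308). The calls were lost in 9, 12 and 12 of the 15 fits that leave out 1 library, with adjusted p up to 0.0865, 0.178 and 0.172, and they remained for NAGS without BRG1 library 1 or 2, BRM library 1, double library 3 or 4 or NS library 4, for CNN1 without NS library 1 or 2 or BRM library 1, and for NT5E without BRM library 1, double library 3 or NS library 4. NAGS also missed the threshold with limma voom (adjusted p = 0.0538) and CNN1 with library totals alone (adjusted p = 0.0876).

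ITGB3 and PLK2 rose with either loss and sat near NS with both. ITGB3, an integrin subunit, rose by 1.90 ± 0.43 and 1.80 ± 0.46 in the BRG1 and BRM knockdown (adjusted p = 0.00563 and 0.0172) and was 0.40 ± 0.44 from NS in the double knockdown (adjusted p = 0.58). PLK2, a kinase induced by p53, read 17.5, 18.7, 16.5 and 17.4 CPM in NS, 38.8, 42.5, 22.3 and 20.2 after BRG1 knockdown, 36.2, 40.3 and 31.8 after BRM knockdown and 15.5, 18.3, 20.7 and 15.2 in the double knockdown. Double and NS libraries of PLK2 overlapped, and each BRM library lay above them all. PLK2 had a deviation of -1.87 ± 0.32 (adjusted p = 0.0164; -2.34 and -1.15 in the sets), which missed the threshold without double library 1 or BRM library 2 (adjusted p from 0.0575 to 0.0661) and with library totals alone (adjusted p = 0.073). For ITGB3 the deviation was -3.30 ± 0.62 (adjusted p = 0.0296), and 4 of the 15 fits without 1 library, those without NS library 1, BRM library 1 or double library 3 or 4, called it (adjusted p up to 0.143 in the rest). CD22, a lectin known from B cells, had means of 4.44, 8.70, 9.69 and 2.79 CPM in NS, BRG1, BRM and double knockdown. Its deviation was -2.77 ± 0.46 (adjusted p = 0.0124; -1.91 and -3.85 in the sets). In libraries 1 and 2 the BRG1 values of CD22 (6.43 and 6.36 CPM) overlapped those of NS (5.58 and 6.56), and the double values (2.62 and 2.43) lay below them. In libraries 3 and 4 the BRG1 values (11.3 and 10.7) lay above those of NS (2.95 and 2.65).

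**Figure D3:**
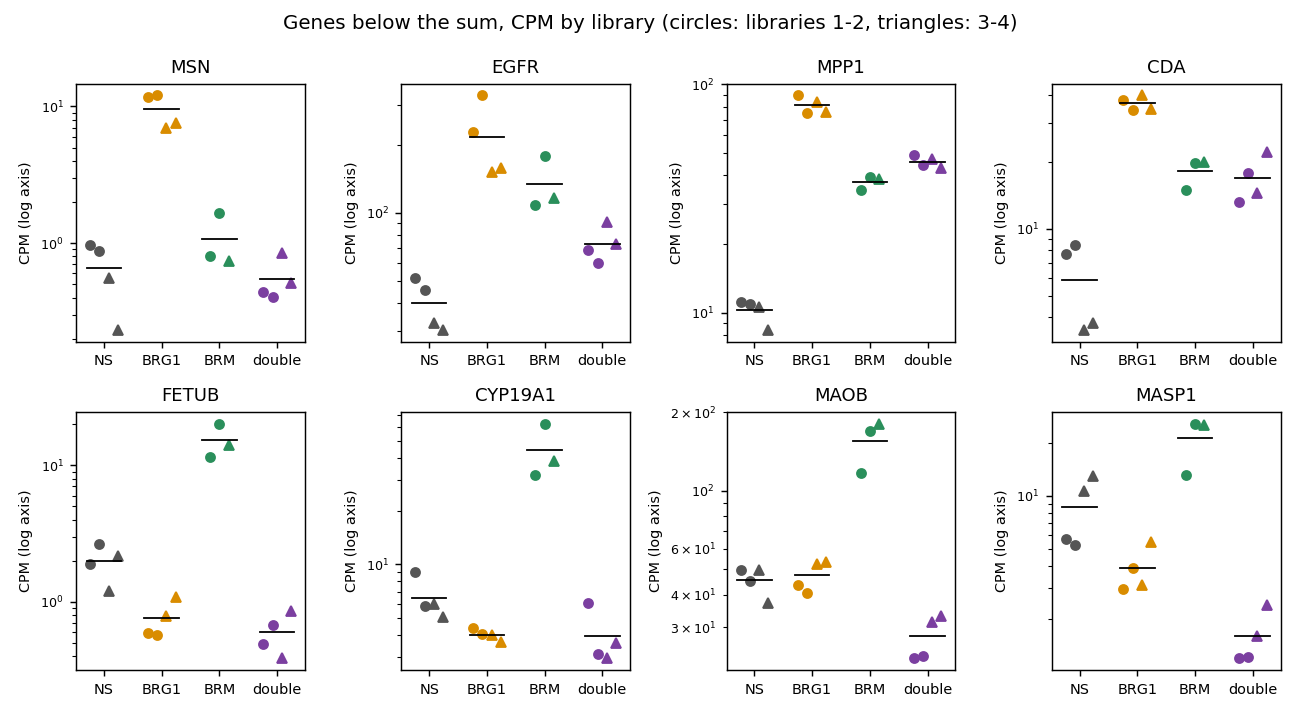
CPM on a logarithmic axis in each library for 8 genes below the sum, by group, where circles are libraries 1 and 2, triangles are libraries 3 and 4 and the line is the group mean. MSN, EGFR, MPP1 and CDA are highest after BRG1 knockdown, FETUB, CYP19A1, MAOB and MASP1 are highest after BRM knockdown, and in no panel do the double libraries reach the highest group.

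The largest deviation below the sum, -5.41 ± 1.02 for ALPPL2 (adjusted p = 0.0308), rested on 3 counts in NS, and MAP3K7CL (-4.39 ± 0.80, adjusted p = 0.0242) on 4. Such values depend on the prior count of the fit and are no measure of size, and their calls remained in 5 and 9 of the 15 fits that leave out 1 library. PCDHGB5 (8 counts in NS) shares exons with its neighbours in the protocadherin gamma cluster, so its counts are uncertain. Of the 73 called genes, 8 averaged under 2 CPM, 71 are protein-coding in GENCODE v29 and 43 overlap another gene. Among the genes named above, an overlapping gene on the other strand makes the counts of FZD4 (PRSS23), LPAR6 (RB1), EGFR (EGFR-AS1), JADE1 (SCLT1), SLC51A (PCYT1A), MBNL3 (RAP2C-AS1) and CYP19A1 (MIR4713HG) uncertain, since the strand setting of the counting is not given in the sources used here. The same holds, with a non-coding, pseudogene or clone-named gene on the other strand, for SMARCA4, SMARCA2, TNFAIP3, DUSP6, SMPDL3B, SIRPA, SNX10, CRABP2, TMEM135, FETUB, MASP1, ACSL1, LPIN1, ITGB3, MAP3K7CL and PCDHGB5. It holds as well for the genes named below CCDC142 (TTC31), DBNDD2 (TP53TG5), JUNB (HOOK2), IL1R1 (IL1R1-AS1), ICAM1, EZR (EZR-AS1), RDX (ZC3H12C), SPRY4 (SPRY4-AS1), HMMR (HMMR-AS1), CPB2 (CPB2-AS1) and AKR1C2. Among the genes with a value given for every library, SMPDL3B lies at chr1:27934993-27959157, MSN at chrX:65588377-65741931, EGFR at chr7:55019021-55211628 and BIRC3 at chr11:102317450-102339403, all on the plus strand of GRCh38.

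Both single effects were called and at least 1 in size on the log2 scale, with an SE of the deviation under 0.5, for 174 genes. Of these, 11 (6.32%) were called off the sum, 3 above and 8 below, against 0.499% of all genes tested. A deviation under 0.5 in size was found for 71 of the 174 (40.8%), against 65.7% of all genes tested, and a 95% confidence interval that held 0 for 102. For none of them did the interval lie within 0.5 of 0, and for 24 it lay within 1. The 174 were picked by single effects that share libraries with the deviation. The shares set against all genes therefore depend on the selection and are no separate evidence. The 4 genes with the smallest deviation of the 174, chosen for it, show what values on the sum look like over all libraries. TTR, the thyroid hormone carrier transthyretin, read 129, 126, 118 and 89.5 CPM in NS, 43.1, 35.3, 46.3 and 48.9 after BRG1 knockdown, 30.4, 48.9 and 38.7 after BRM knockdown and 14.2, 15.8, 10.2 and 18.2 in the double knockdown. The single knockdowns overlapped below NS, and all double libraries lay below them. TTR fell by 1.41, 1.55 and 2.99 in the BRG1, BRM and double knockdown, and its deviation was -0.02 with a 95% confidence interval of -0.64 to 0.60. RGN, the calcium-binding protein regucalcin, fell by 1.93 after BRG1 knockdown, rose by 1.01 ± 0.25 after BRM knockdown and fell by 0.91 in the double knockdown, with a deviation of 0.02 (interval -0.69 to 0.72). CCDC142 and DBNDD2 moved in opposite directions in the single knockdowns, and their deviations were 0.003 (interval -0.94 to 0.95) and -0.02 (interval -0.75 to 0.70). All 4 changed sign between libraries 1 and 2 and libraries 3 and 4, and none passed edgeR's test within a set. The values were 0.29 and -0.34 for TTR, 0.65 and -0.53 for RGN, 0.39 and -0.12 for CCDC142 and 0.08 and -0.32 for DBNDD2. 

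Deviations were more numerous within each set of libraries than over all 15. A fit with a mean for each group in each set called 1938 genes in libraries 1 and 2 (13.3% of those tested) and 530 in libraries 3 and 4 (3.62%). Of the 1938, 1481 (76.4%) had the same sign in libraries 3 and 4, against 58.2% of all genes tested and 55.5% of genes not called in libraries 1 and 2. The group means of libraries 3 and 4 did not enter those calls, but these libraries shared the filter, the scaling and the estimate of the spread. Of the 530, 472 (89.1%) had the same sign in libraries 1 and 2. Across all genes the deviations of the 2 sets correlated weakly (Pearson's r = 0.213 over 14621 genes, which are not independent). All 73 genes called over the 15 libraries had the same sign in both sets, but those calls used both sets, so the agreement is a description. In the fit by sets, 57 of the 73 (11 above and 46 below the sum) were called in both sets. The sets share 1 estimate of the spread there, and the 1 BRM library of the second set has no spread of its own. A wider class, defined after the data were seen, took the 232 genes called in both sets with the same sign (1.59%), 42 above the sum (0.287%) and 190 below it (1.3%).

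**Figure D4:**
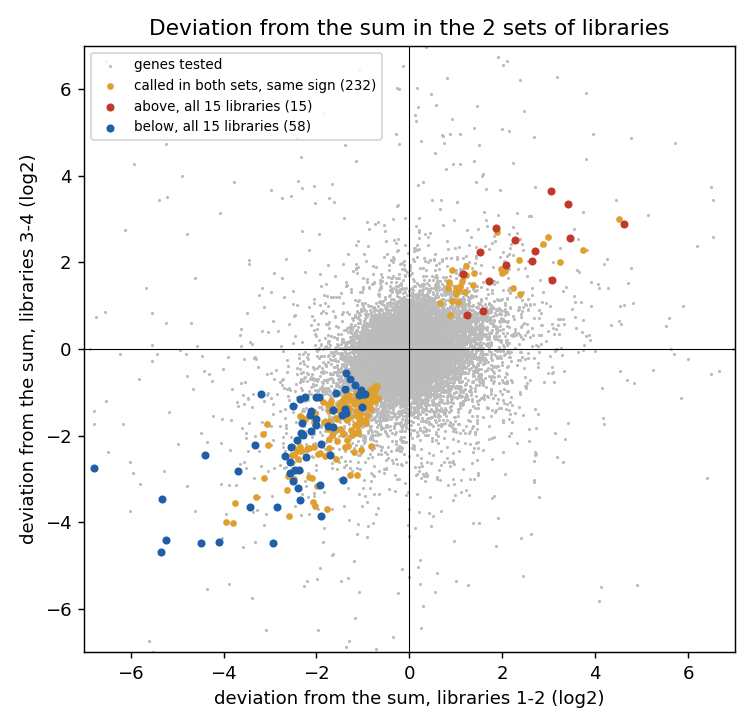
Each point is a gene tested, with its deviation from the sum in libraries 1 and 2 (log2) on the horizontal axis and in libraries 3 and 4 on the vertical axis, and 74 genes lie outside the axes. Yellow points are the 232 genes called in both sets with the same sign, and the 15 red and 58 blue points, called over all libraries, fall at the upper right and the lower left.

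Members of the wider class that were not called over all libraries included CCL20, ICAM1, IL1R1, FOS, JUNB, JUN and SPP1, named here after their values were seen. CCL20, a chemokine that attracts lymphocytes, read 11.9, 12.2, 47.8 and 83.7 CPM in NS, 5.83, 5.12, 24.1 and 26.5 after BRG1 knockdown, 2.58, 1.40 and 4.24 after BRM knockdown and 19.3, 20.4, 10.0 and 16.4 in the double knockdown. In libraries 1 and 2 the double knockdown was the highest group, while in libraries 3 and 4 it lay below NS and BRG1 knockdown, and in both sets BRM knockdown was lowest. The deviation of CCL20 was 4.51 and 3.01 within the sets (adjusted p = 0.00018 and 0.00887) and 3.92 ± 1.02 over all libraries (adjusted p = 0.111). ICAM1, a leukocyte adhesion molecule, and IL1R1, the interleukin-1 receptor, had deviations of 1.39 and 1.77, and of 1.22 and 1.92, within the sets. FOS and JUNB, subunits of the AP-1 transcription factor, lay above the sum in both sets (2.99 and 2.59 for FOS, 1.21 and 1.70 for JUNB), and JUN, their partner, lay below it (-0.81 and -1.21). JUNB read 13.5, 13.4, 16.2 and 21.0 CPM in NS, 45.3, 42.8, 50.8 and 47.2 after BRG1 knockdown, 7.49, 12.2 and 14.5 after BRM knockdown and 72.9, 79.3, 133 and 113 in the double knockdown. All double libraries of JUNB lay above all others, and over all 15 libraries its deviation was 1.59 ± 0.35 (adjusted p = 0.0603). SPP1, the secreted phosphoprotein osteopontin, had deviations of 3.25 and 2.01 within the sets and means of 655, 81.0, 48.3 and 41.5 CPM in NS, BRG1, BRM and double knockdown, so that it fell in all 3 arms.

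By gene list, called genes were few. With edgeR over all libraries, 0.103% of all genes tested were called above the sum and 0.397% below it, and with DESeq2 1.18% and 2%. Of 16 NF-kB and chemokine genes tested, edgeR called 2 (TNFAIP3 and BIRC3) above the sum and 0 below, DESeq2 called 4 above, and 14 had a positive deviation, against 46.0% positive among all genes. Their median was 0.65 (0.78 and 0.61 in the sets), beside -0.05 for all genes, and 5 (CCL20, IL1R1, TNFAIP3, BIRC3 and ICAM1) belonged to the wider class. Of 20 AP-1 and immediate early genes, edgeR and limma voom called EGR1 alone, DESeq2 called 2 above and 1 below the sum, and the median was 0.08. Of 21 ERK output genes, edgeR called DUSP6 above and EGFR below the sum, DESeq2 called 2 above and 1 below, and SPRY4, a feedback inhibitor, had 1.51 without passing the test (adjusted p = 0.11). Of 26 cytoskeletal and membrane linker genes, 22 had a negative deviation, and edgeR and DESeq2 each called MSN alone, below the sum. The moesin relatives ezrin (EZR) and radixin (RDX) had deviations of -0.19 and -0.35, with adjusted p of 0.87 and 0.76. Of 30 p53 targets, 25 had a negative deviation, edgeR called PLK2 and DESeq2 3 below the sum, and the median was -0.46 (-0.70 and -0.24 in the sets).

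Cell cycle genes leaned above the sum, mostly through libraries 1 and 2. Of 40 G2/M and mitosis genes, 39 had a positive deviation (97.5%), with a median of 0.78 over all libraries, 1.34 in libraries 1 and 2 and 0.50 in libraries 3 and 4. The median BRG1 effect on these genes was -1.002 and the median double effect -0.39. Over all libraries edgeR called 0 of the 40, with 18 at an unadjusted p under 0.05 (11.9% of all genes), while DESeq2 called 4 above the sum (1.18% of all genes) and limma voom 0 (0.0889%). Within libraries 1 and 2, 24 were called above the sum (5.72% of all genes), and within libraries 3 and 4, 0 (0.787%). HMMR, a spindle protein, had the largest deviation of the list, 1.35 (adjusted p = 0.23; 1.76 and 1.02 in the sets), and the proliferation marker MKI67 had 1.20 (adjusted p = 0.32; 1.75 and 0.89). Of 40 G1/S and replication genes, 36 had a positive deviation, with medians of 1.04 and 0.11 in the sets, and 23 were called above the sum in libraries 1 and 2. Under the other scalings of the libraries the G2/M median was 0.81 to 0.97.

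Of 28 SWI/SNF subunit genes, edgeR, DESeq2 and limma voom each called 0 (2 at an unadjusted p under 0.05 in edgeR), and the median deviation was -0.09. Among 21 genes of fatty acid oxidation and ketogenesis, 17 had a negative deviation with a median of -0.36 (-0.31 and -0.39 in the sets). Of these, edgeR called 0 (7 at an unadjusted p under 0.05, against 11.9% of all genes), with DESeq2 calling 1 below the sum (2% of all genes) and voom 0 (0.328%). Of 24 hepatocyte transcription factors, 0 were called by edgeR, DESeq2 or voom, 0 had an unadjusted p under 0.05 in edgeR, and the median was -0.09. Under the other scalings the medians of the SWI/SNF subunits and hepatocyte factors reached 0.10 and 0.12, so their sign depends on the scaling, while those of NF-kB, ERK, p53, linker and fatty acid oxidation genes kept theirs. The hepatocyte identity markers had a median of 0.00 over all libraries, 0.53 in libraries 1 and 2 and -0.45 in libraries 3 and 4. Plasma protein, complement, coagulation and xenobiotic genes showed the same split between the sets, with medians of 0.60 and -0.77, 0.52 and -0.30, 0.23 and -0.75, and 0.34 and -1.05, while mitochondrially encoded genes had 0.14 and -1.43. The levels of markers of other cell types also differed between the groups. The 8 cholangiocyte markers, all detected, summed to 1480 to 2433 CPM in NS, 3296 to 4970 after BRG1 knockdown, 544 to 902 after BRM knockdown and 1462 to 3002 in the double knockdown. Most of the sum after BRG1 knockdown was KRT19 (2842 to 4589 CPM, against 660 to 1279 in NS). SPP1 went the other way (506 to 836 CPM in NS, 63.2 to 99.35 after BRG1 knockdown). EPCAM overlapped between these groups, and CFTR was near 0 in every group. Of 8 stromal markers, all with some counts but only 3 tested, the sums were 59.0 to 126, 117 to 332, 122 to 172 and 99.2 to 135 CPM in NS, BRG1, BRM and double knockdown. Most of it was COL1A1 and ACTA2. After BRM knockdown COL1A1 lay at 11.4 to 14.9 CPM (12.5 to 67.2 in NS) and ACTA2 at 106 to 151 (28.7 to 62.4 in NS). COL1A2, COL3A1, DCN and LUM reached at most 0.433 CPM. Of 11 blood and endothelial markers, 10 were detected, with sums of 514 to 1631, 776 to 1362, 137 to 206 and 343 to 491 CPM, most of it LYZ, and CD3E was at 0 counts in all 15 libraries. Of 10 neural markers, 6 were detected, with sums of 248 to 369, 705 to 979, 142 to 396 and 330 to 721 CPM, nearly all of it TUBB3, and NEFL, NEFM, STMN2 and ELAVL4 were at 0 counts in all 15 libraries. Of the members tested, edgeR and limma voom called 0 off the sum in each of the 4 lists (1, 1, 2 and 1 at an unadjusted p under 0.05 in edgeR), DESeq2 called 1, 1, 0 and 1, and the part of these markers in the deviations was not tested.

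**Figure D5:**
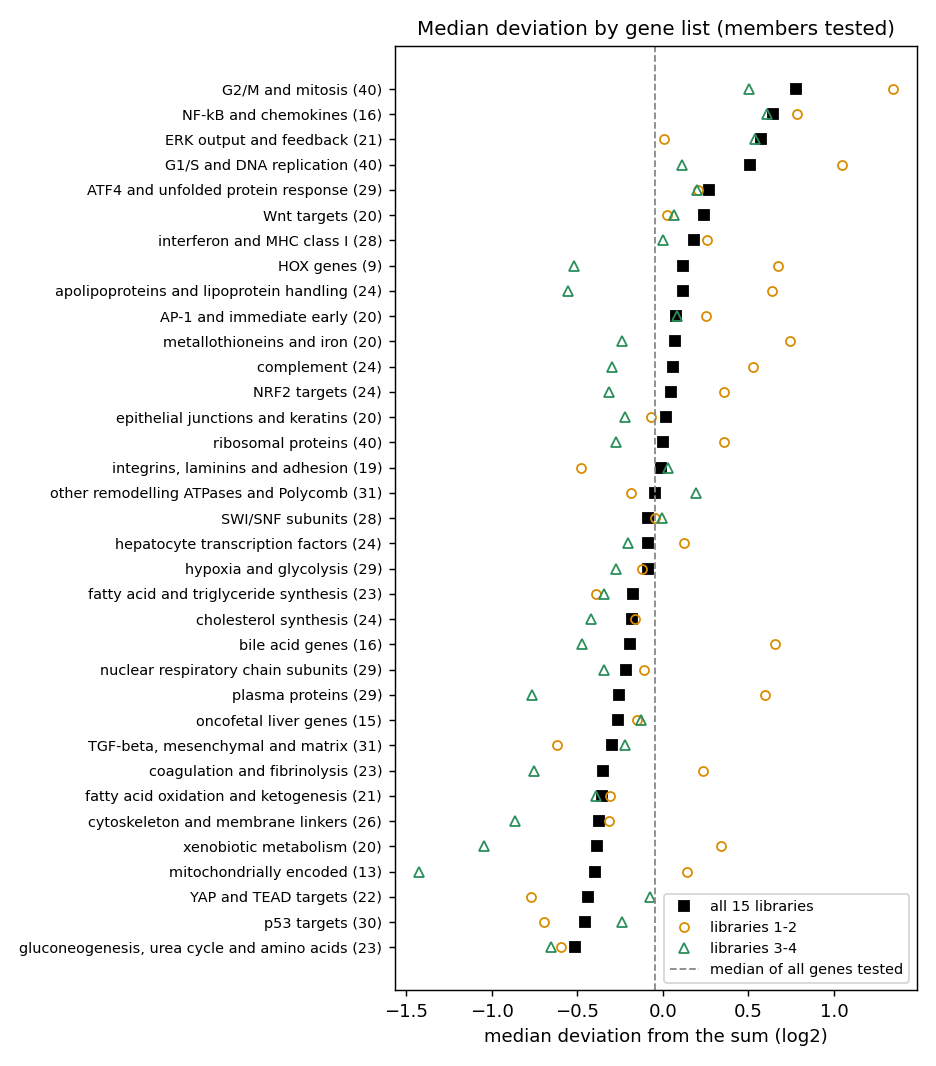
Median deviation from the sum (log2) for each gene list, with the number of members tested in brackets, over all 15 libraries (squares), in libraries 1 and 2 (circles) and in libraries 3 and 4 (triangles), beside the median of all genes tested (dashed line). The 3 symbols lie close together for NF-kB and chemokine genes and far apart for plasma proteins, xenobiotic metabolism and mitochondrially encoded genes.

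The counts of calls depended on single libraries and on the scaling. Leaving out 1 library at a time gave 38 to 166 calls, with 166 (57 above, 109 below) without BRM library 1 and 38 (10 above, 28 below) without BRM library 2, and 40 to 48 without BRG1 library 1, 2 or 3, double library 1 or 2, or NS library 3 or 4. Of the 73 genes, 32 remained called in all 15 such fits, among them the above-sum genes SMPDL3B, BIRC3, FZD4, MPZL2 and MBNL3 and the below-sum genes MSN, PTGES, EGFR, FETUB, CYP19A1, CD22, CDA, SLC51A, MPP1, MAOB and SLC45A3. Scaling by library totals alone, which moved the median deviation of all genes from -0.05 to 0.14, gave 41 above and 34 below the sum in place of 15 and 58. All 73 genes kept their sign under each scaling, in DESeq2 and in limma voom, but not all kept their call. Of the 73, 49 remained called with library totals alone, 63 with totals without mitochondrially encoded genes and 69 with RLE factors. In limma voom 58 remained called, and in DESeq2 all 73.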

How the data were processed

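RNA sequencing of 15 HepG2 libraries was analysed. Per the labels' protocols, total RNA was purified on columns from cells in Trizol, and libraries were made with a kit for messenger RNA. The deposited values are estimated counts in whole numbers, 1 row per gene symbol, without normalization between libraries, and they were used as deposited. The submitters' processing notes name kallisto, DESeq2 and GRCh38. Their versions and roles, the annotation and the strandedness were not given in the sources used here. Estimated counts divide reads shared by similar transcripts, which affects paralogs and overlapping genes.

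Gene symbols, 35012 in all, were filtered with filterByExpr on the group (14621 left). They were tested in edgeR 4.0.16 (R 4.3.3) with TMM factors and the robust quasi-likelihood F test on group means of all 15 libraries, so that the groups shared 1 estimate of the spread. P-values were adjusted by Benjamini-Hochberg over the 14621 genes, tests are two-sided, and the SE is the size of a log2 difference divided by the square root of F. CPM use TMM-scaled totals, except the sums and ranges given for the marker lists of cell types, which use library totals without TMM factors. Deviations within sets came from a fit of group by set means. Alternatives were RLE factors, library totals, totals without mitochondrially encoded genes, no filter, DESeq2 1.42.0, limma 3.58.1 voom, a replicate block, a term for the set, and leaving out each library. The fits were tested on simulated data.

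Named genes were the 12 largest deviations each way among called genes with at least 2 CPM and 1 sign in both sets, up to 3 called members of each of the 40 gene lists, 4 genes near the sum, SMARCA4 and SMARCA2. Other genes named were chosen after their values were seen. The members and lists were chosen with earlier results of these data known, so a list's direction is no independent evidence. Single knockdown, double knockdown and deviation share libraries, so their values are given side by side. Calls of the deviation among genes with strong single effects are a description only. Of 35012 symbols, 33662 matched GENCODE v29 on GRCh38, and of the 1004 list entries 995 matched a symbol of the table. The authors' comparison tables were not used here.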

Additional observations from a re-analysis of the deposited data

Results flagged for a closer look

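Of 108 groups of 4 libraries checked among the named genes, 6 held a library far from the other 3, and chance gives about 1 such group in 20. MPZL2 read 19.1 CPM in NS library 3 against 24.4 to 24.9 in the other NS libraries, and SNX10 read 30.2 in NS library 4 against 26.65 to 26.74. NT5E read 38.5 in BRG1 library 1 against 35.2 to 35.5. SMARCA4 read 297 in NS library 2 against 310 to 311 and 24.4 in BRG1 library 4 against 28.6 to 29.3, and SMARCA2 read 33.1 in NS library 2 against 41.1 to 41.4. In each case the other 3 libraries lay unusually close together.

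The deviation from the sum itself differed between libraries 1 and 2 and libraries 3 and 4 for 7 genes, by edgeR's test of that difference over all genes. Libraries 3 and 4 minus libraries 1 and 2 gave -5.08 for HAMP, the liver hormone hepcidin that controls iron, -3.30 for AKR1C1 and -3.15 for AKR1C2, near-identical steroid-reducing enzymes whose shared reads make each count uncertain, -2.72 for FST, -2.70 for CPB2, -2.63 for NUPR1 and -2.61 for SULT2A1. AKR1C1 lay above the sum in libraries 1 and 2 (2.59, adjusted p = 0.000277) and at -0.71 in libraries 3 and 4 (adjusted p = 0.213), and all 7 had the higher deviation in libraries 1 and 2. None of the 7 was called over all 15 libraries. Mitochondrially encoded RNA also differed between these sets, and its part in the difference was not tested.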

How the results depend on the processing

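Of the settings other than leaving out a library, RLE factors, totals without mitochondrially encoded genes, no filter on low counts and limma voom kept the counts of calls within 1.5 times of 73, 15 above and 58 below the sum. Library totals alone gave 41 above and 34 below. DESeq2 called 465 (173 above, 292 below), and a term for the set 1061 (354 and 707). The fit by sets used all 15 libraries. It called 1938 within libraries 1 and 2 (837 and 1101) and 530 within libraries 3 and 4 (115 and 415). Calls in both sets with the same sign, added after seeing the data, numbered 232 (42 and 190). The replicate block gave 633 calls (196 above, 437 below). Under the block and under the set term, calls were 1.34% and 2.42% of all genes above the sum and 2.99% and 4.84% below it. By list these fits called 5 and 6 NF-kB genes above the sum, 4 and 4 AP-1 genes above and 0 and 2 below, 2 and 3 ERK genes above and 2 and 2 below, 1 and 5 G2/M genes above, 1 and 2 linker genes below, 4 and 4 p53 targets below and 3 and 3 fatty acid oxidation genes below. Deviations of same-numbered libraries from their group means correlated over 0.1 in 18 of 21 pairs, from 0.0133 for BRM and double library 2 to 0.659 for BRG1 and double library 4, and 2 of the 15 libraries correlated best with their own number in every other group. Since 3 pairs were under 0.1 and no label ties a number to a day, culture or batch, the numbers were not taken to pair the libraries. All 73 genes were also called under the block. Without 1 library the calls were 38 to 166, with 9 to 57 above and 28 to 109 below the sum. The 1481 genes called in libraries 1 and 2 with the same sign in libraries 3 and 4 became 482 to 3199 over the 14 fits possible, since leaving out BRM library 3 empties its set. The causes were not tested. No value of a called gene named here reversed its sign. Of the called named genes' values, 10 missed the threshold under settings other than leaving out a library, and 101 missed it in the fits that leave out 1 library. SMARCA4, not called over all libraries, passed it within libraries 1 and 2 (0.74, adjusted p = 0.04). The smallest deviation called over all libraries was 1.001 in size, and for none of the 174 genes with strong single effects did the 95% interval of the deviation lie within 0.5 of 0.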
